A study of Mus musculus with 18 samples.

Results

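Genes that mark gamma-delta and innate-like T cells were followed in sorted mouse thymocytes. The 6 members were the T cell receptor (TCR) gamma constant genes Trgc1, Trgc2 and Trgc4, the gamma variable segment Trgv2, and the transcription factor genes Sox13 and Zbtb16. They were found by the Entrez gene number of each mouse symbol among the 27179 genes of the count files. All 6 passed the low-count filter, as did 12798 genes in all. The members were chosen by a readout of these data, the rise of TCR gamma genes in Hoil MHC I high cells. Values from any comparison that uses the Hoil high or WT high samples are therefore given as a description, with no test.

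The study sequenced RNA from 18 samples of 9 mice, 3 of each of 3 genotypes. The groups were WT (C57BL/6), Hoil and Sharpin. In Hoil mice, a floxed Rbck1 gene, which encodes the ubiquitin ligase subunit HOIL-1, was deleted by Cd4Cre. Sharpin mice carried the cpdm mutation. From each mouse, CD69+ thymocytes were sorted into an MHC I low and an MHC I high fraction, an earlier and a later stage after positive selection. HOIL-1 and SHARPIN are both parts of the linear ubiquitin chain assembly complex, and the series compares thymocytes that lack 1 or the other with WT. Cd4Cre acts only in T-lineage cells, from the stage at which CD4 comes on, after gamma-delta and alpha-beta precursors have parted. The floxed line came from 1 clone of C57BL/6-derived stem cells. The cpdm mice lack SHARPIN in every cell, come from a C57BL/Ka background crossed 2 times to C57BL/6, and were used before extensive skin disease, so that strain and genotype cannot be told apart in them. Both sexes were used, and ages are not given in the sources used here. The sort gated out cells stained for the delta TCR, for CD25 or CD44, and for B cell (B220), NK cell (NK1.1), myeloid (Mac-1 and Gr1) or MHC II markers, so that surface gamma-delta T cells were meant to be absent from every sample.

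Libraries held between 10577966 and 16266128 counts over all genes. The labels were checked against their defining genes. H2-K1, a classical MHC I gene, lay at 157 to 232 CPM (counts scaled to library size) in the low samples and at 1725 to 2118 CPM in the high ones. Trac, the alpha TCR constant gene, lay between 623 and 801 CPM in every sample. Rbck1 was at 0.271 to 0.779 CPM in the Hoil low samples and 3.72 to 8.94 CPM in the Hoil high samples, against 217 to 268 CPM in the others. Sharpin RNA was lower in Sharpin low than WT low cells by the limma test used throughout, which works on log2 CPM with Benjamini-Hochberg adjustment over all genes tested (log2 difference −0.36). The cpdm mutation is a frameshift, so that the RNA level alone does not check it. The female transcript Xist was abundant in both fractions of all 3 WT mice, of Hoil mouse 3 and of Sharpin mouse 2, so that no WT male was in the series. The high sample of Hoil mouse 2 held 64.6 CPM of Xist and 339 CPM of the Y-linked gene Ddx3y, against 0.605 CPM and 428 CPM in its low sample, and had the highest Rbck1 of the Hoil samples. Whether cells or RNA of another mouse entered it, and what part this had in the members' values, was not tested. In the other 2 Hoil high samples, as a description, Trgc1, Trgc2, Trgc4 and Sox13 lay above all WT high samples. Trgv2 did so in Hoil mouse 3 but not in Hoil mouse 1.

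A gamma-delta T cell receptor pairs a gamma with a delta chain, each built by joining variable and joining segments (and diversity segments, for delta) to a constant gene. Gamma genes rearrange early in the thymus, also in cells that go on to make an alpha-beta receptor, and such cells normally keep gamma transcription low. The delta segments lie inside the alpha locus and are deleted from a chromosome when its alpha segments rearrange. Sox13 is an HMG-box factor of early thymocytes and of interleukin 17-producing gamma-delta cells, and Zbtb16 encodes PLZF, the factor that sets the innate-like programme of NKT cells and of some gamma-delta cells.

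The gamma locus lies on chromosome 13 and spans 174.3 kb in the mm10 build (GRCm38.p6), as 4 clusters that each end in a constant gene. Trgc1 (Entrez 107573) is at chr13:19214103-19216618 on the plus strand, Trgc2 (107574) at chr13:19305060-19307551 on the minus strand, and Trgc4 (107576) at chr13:19344558-19352343 on the plus strand. Trgv2 (21636), at chr13:19336573-19337026 on the minus strand, is the variable segment of the cluster that holds Trgj2 and Trgc2. Sox13 (20668) is at chr1:133382300-133424459, and Zbtb16 (235320) is at chr9:48651797-48836225. For the TCR genes only the coding part was counted, 518, 503, 571 and 350 bases for Trgc1, Trgc2, Trgc4 and Trgv2, so that reads in their 3′ UTRs did not enter.

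The constant genes are near copies of each other, which bears on how well a 75-base read can tell them apart. The start of constant exon 1 is shown for each, as 1 read length of the coding strand, because the comparison between Trgc1, Trgc2 and Trgc4 depends on these differences; capitals mark bases that differ from Trgc1 (GENCODE M21 transcripts, GRCm38).
Trgc1, chr13:19214103-19214177: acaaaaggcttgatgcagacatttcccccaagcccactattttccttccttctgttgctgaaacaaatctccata
Trgc2, chr13:19307477-19307551: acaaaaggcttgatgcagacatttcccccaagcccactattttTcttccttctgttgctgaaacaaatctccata
Trgc3, chr13:19260885-19260959: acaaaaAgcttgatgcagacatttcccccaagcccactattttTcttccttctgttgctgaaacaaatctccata
Trgc4, chr13:19344558-19344632: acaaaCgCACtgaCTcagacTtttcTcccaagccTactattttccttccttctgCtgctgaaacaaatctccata
Trgc2 differs from Trgc1 at 1 of these 75 bases, Trgc3 at 2 and Trgc4 at 10. Over the whole of exon 1, which is 330 bases in each gene, Trgc1 and Trgc2 are 97.3% identical, whereas Trgc1 and Trgc4 are 82.1% identical. Of the 75-base stretches in the coding part of Trgc1, 7.26% also occur in another gamma gene, and for Trgc2 the share is 6.1%. None of the 495 stretches of Trgc4 and none of the 276 of Trgv2 is shared, although Trgv2 is 95.1% identical to Trgv1. How reads that map to several genes were handled is not given in the sources used here, so that a part of the Trgc1 and Trgc2 counts is uncertain between them, and Trgc4 and Trgv2 are not touched by exact sharing.

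In Hoil MHC I high cells, all 4 gamma members and Sox13 had their highest mean level among the MHC I high groups, and Zbtb16 its lowest. Trgc1, in the order mouse 1, 2 and 3, was at 2.28, 3.33 and 6.82 CPM in Hoil high cells, at 1.13, 1.00 and 1.52 CPM in WT high cells and at 1.73, 1.33 and 0.642 CPM in Sharpin high cells. Every Hoil high sample lay above all other samples. Trgc2 was at 5.01, 8.71 and 11.1 CPM in Hoil high cells, against 3.15, 3.83 and 3.03 CPM in WT high cells. In Sharpin high cells it was at 2.43, 4.20 and 0.999 CPM, a range that took in the WT one. Trgc4 was at 3.72, 4.70 and 7.78 CPM in Hoil high cells and at 4.10, 3.18 and 5.57 CPM in Sharpin high cells. Both ranges were above the 2.26, 1.44 and 2.83 CPM of WT high cells, and they overlapped each other.

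Trgv2 was at 2.58, 5.38 and 7.68 CPM in Hoil high cells and at 2.67, 1.44 and 1.72 CPM in WT high cells. Hoil mouse 1 lay within the WT range here, so that the groups overlapped. In Sharpin high cells Trgv2 was at 2.94, 2.10 and 1.64 CPM. The fitted log2 differences between Hoil high and WT high were 1.53 (SE 0.374) for Trgc1, 1.37 (SE 0.389) for Trgc2, 1.12 (SE 0.31) for Trgc4 and 1.43 (SE 0.435) for Trgv2. These are the values that chose the members, and 6.65% of all genes tested passed an adjusted p of 0.05 in that contrast. Hoil mouse 3 was the highest sample of the series for each of the 4 genes, and Hoil mouse 1 was the lowest of the Hoil high samples for each. Between Sharpin high and WT high the log2 difference was 0.69 (SE 0.285) for Trgc4 and lay between −0.34 and 0.23 for the other gamma members.

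**Figure D1:**
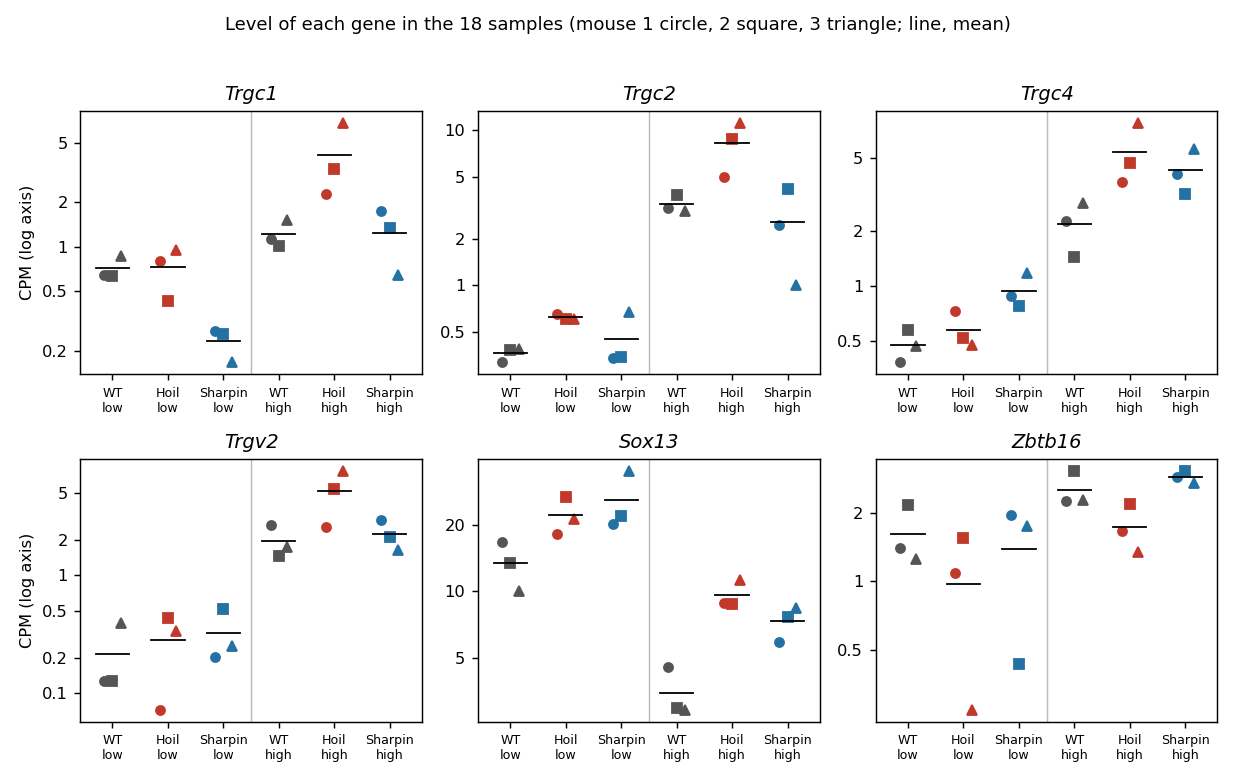
CPM of the 6 members in each of the 18 samples, on log axes, by genotype and MHC I fraction; each symbol is 1 mouse and each line is the group mean. Within each genotype the mean of the 4 gamma genes lies higher in the MHC I high fraction, and it is highest in Hoil high cells, whereas Sox13 lies higher in the MHC I low fraction.

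Levels are comparable between genes only per length. In WT high cells the mean level per kilobase of counted sequence was 6.64 CPM for Trgc2, 5.56 CPM for Trgv2, 3.81 CPM for Trgc4, 2.35 CPM for Trgc1, 0.979 CPM for Sox13 and 0.496 CPM for Zbtb16. All 4 gamma members are thus rare transcripts beside Trac. Each of the 15 gamma segments in the files had at least 1 count over the series, and Trgv2 held 44.5% of all counts to the 7 variable segments. Of the 11 gamma segments that are not members, 4 passed the low-count filter (Trgv1, Trgv4, Trgj2 and Trgj4). All 4 had higher means in Hoil high than WT high cells, such as 2.28 against 0.767 CPM for Trgv4, a variable segment of the Trgc1 cluster, and 2.19 against 0.774 CPM for Trgv1. Trgj2 and Trgj4 were kept by the filter partly through Hoil high samples, and Trgj4 reached at most 0.251 CPM in WT high cells. The choice of the members used the same samples, so that these means are a description and not support. The segments that did not pass the filter were sparser. Trgv6, a segment of gamma-delta cells made in the fetal thymus, had between 4 and 7 counts per group of 3 samples, Trgv5 and Trgv3 had at most 3 and 10, and Trgj3 had 1 count in all. Trgv7 and Trgj1 had at most 11 and 19 counts per group.

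**Figure D2:**
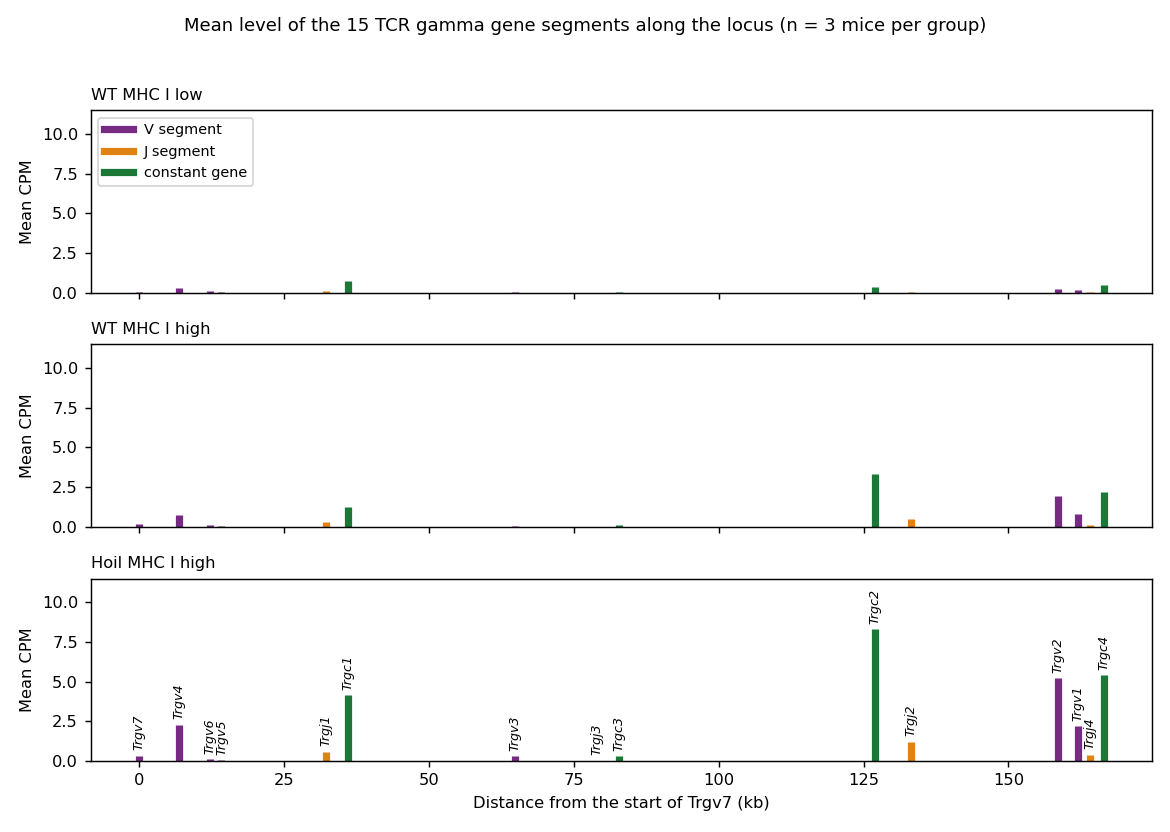
Mean CPM (n = 3 mice) of the 15 gamma segments in WT low, WT high and Hoil high cells, 1 panel each, by distance in kilobases from the start of Trgv7; colours mark variable, joining and constant segments. The tallest bars in Hoil high cells are Trgc2 (8.29 CPM), Trgc4 (5.40 CPM), Trgv2 (5.21 CPM) and Trgc1 (4.14 CPM).

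Summed over all 15 segments, gamma RNA was at 18.7, 29.4 and 43.9 CPM in Hoil high cells, 12.3, 10.9 and 11.9 CPM in WT high cells, and 17.0, 15.4 and 13.3 CPM in Sharpin high cells. The Hoil samples were above all others and the Sharpin samples above all WT ones. Trdc, the delta constant gene, was at 30.7, 30.8 and 41.8 CPM in Hoil high cells, against 29.3, 23.5 and 26.1 CPM in WT high and 24.5, 28.8 and 25.8 CPM in Sharpin high cells. Its log2 difference between Hoil high and WT high, 0.38 (SE 0.114), was smaller than those of the gamma constant genes. Of the 7 delta segments tested, 3 had a higher fitted level in Hoil high than WT high cells and 4 a lower one, with Trdv1 at 1.73 against 2.501 CPM. In bulk samples such as these, more cells of a type and more RNA per cell cannot be told apart.

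**Figure D3:**
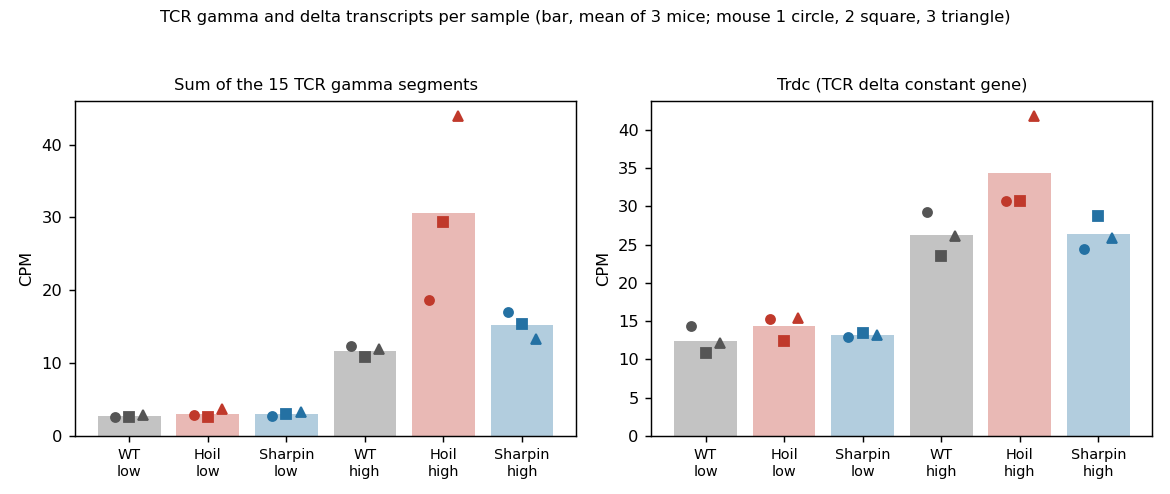
Summed CPM of the 15 gamma segments in 1 panel and CPM of Trdc in the other, for each sample, by genotype and fraction; points are mice and bars are group means. In the MHC I low fraction the gamma sums of the genotypes lie together between 2.51 and 3.73 CPM, and in the high fraction the 3 Hoil samples lie above the rest.

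The MHC I low samples were not used to choose the members, although they come from the same mice, and they allow a test of whether the rise was already present at the earlier stage. For the gamma genes no such difference was detected in Hoil mice. Summed gamma RNA was at 2.83, 2.51 and 3.73 CPM in Hoil low cells and 2.56, 2.56 and 2.89 CPM in WT low cells, and the ranges overlapped (exact permutation test, two-sided, p = 0.7, where 3 against 3 cannot go below 0.1). Trgc1 was at 0.799, 0.432 and 0.950 CPM in Hoil low and at 0.640, 0.640 and 0.860 CPM in WT low cells. The log2 difference was 0.01, with a 95% interval of −0.804 to 0.827 and an adjusted p of 0.997. Trgc2 was at 0.653, 0.605 and 0.611 CPM in Hoil low and at 0.320, 0.384 and 0.391 CPM in WT low cells. Its ranges did not overlap, but the log2 difference of 0.70 (95% interval −0.147 to 1.55) did not pass the test (adjusted p = 0.58). The Trgc2 interval takes in its high-fraction difference of 1.37. The Trgc1 interval ends below its high-fraction difference of 1.53, but that value has a 95% interval of its own, 0.798 to 2.26, which overlaps the low one. For Trgc4 the low-fraction interval was −0.434 to 0.921, and for Trgv2 it was −0.726 to 1.17. These also end below the high-fraction differences of 1.12 and 1.43, whose own intervals, 0.509 to 1.73 and 0.58 to 2.28, overlap them. All 4 high-fraction values chose the members, and whether the low-fraction differences are smaller was not tested. None of the 6 members passed in Hoil low against WT low cells, where 0.985% of all genes did. At an unadjusted limma p under 0.05, 1 of the 6 passed, Sox13, which was also the 1 that DESeq2 called, and edgeR called 0. The share of all genes under that unadjusted limit is not given here. The median log2 difference of the members was 0.23, beside −0.00141 for all genes tested.

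In Sharpin MHC I low cells, Trgc1 was lower than in WT low cells. It was at 0.270, 0.258 and 0.167 CPM, all below the lowest WT low sample. The log2 difference was −1.35 (SE 0.379, adjusted p = 0.0179). In counts, Trgc1 had 9 in the 3 Sharpin low samples and 31 in the WT low ones, a ratio of 0.333 after scaling to depth (95% exact interval 0.139 to 0.717, counting error only). The call was lost with edgeR (adjusted p = 0.122), with DESeq2 (0.0986), in a fit of just the groups compared (0.0579), with Xist as a covariate (log2 −0.98, adjusted p = 0.139), and without WT mouse 1 (0.0558), WT mouse 3 (0.0935) or Sharpin mouse 2 (0.0504). Trgc4 went the other way, at 0.878, 0.775 and 1.17 CPM in Sharpin low cells and 0.384, 0.576 and 0.469 CPM in WT low cells. The groups did not overlap, and the log2 difference of 0.83 (SE 0.315) did not pass (adjusted p = 0.0795). Over the pooled counts, 36 against 21, the ratio was 1.97 (95% exact interval 1.12 to 3.55).

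Trgc2 and Trgv2 did not pass in Sharpin low cells. Trgc2 was at 0.338, 0.344 and 0.669 CPM (log2 difference 0.14, SE 0.395, adjusted p = 0.863). Trgv2 was at 0.203, 0.516 and 0.251 CPM, against 0.128, 0.128 and 0.391 CPM in WT low cells and 0.0726, 0.432 and 0.339 CPM in Hoil low cells. It rested on 1 to 6 counts per low sample, so that only a large difference was detectable at this depth. Of the 6 members, 1 rose (Sox13) and 1 fell (Trgc1) in Sharpin low cells, with a median log2 difference of 0.37 beside 0.00839 for all genes. Of all genes tested, 5.31% rose and 6.92% fell, 12.2% together.

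The 2 mutants were also compared directly in the low fraction. Trgc1 was higher in Hoil low than Sharpin low cells, by 1.36 on the log2 scale (SE 0.428, adjusted p = 0.041), with 30 against 9 pooled counts, a ratio of 3.19 (95% exact interval 1.48 to 7.64). The call was lost with edgeR (adjusted p = 0.0921), with DESeq2 (0.0725), with no low-count filter (0.0526), with a prior count of 3 (0.0627), with only the groups compared (0.109), and without any one of Hoil mouse 1 (0.152), Hoil mouse 3 (0.181) or Sharpin mouse 1, 2 or 3 (0.053, 0.085 and 0.0838). It was also lost with the replicate number as a fixed term. The other 5 members did not pass, with log2 differences of −0.59 for Trgc4, −0.38 for Trgv2 and Zbtb16, −0.15 for Sox13 and 0.56 for Trgc2. In this comparison 9.48% of all genes passed, and 5.12% were higher in Hoil cells.

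The make-up of the constant-gene counts gives the same counts as shares, in which a fall of 1 gene raises the others. Its direction is therefore no separate support for the Trgc1 and Trgc4 values. Of the counts to the 4 constant genes in a low sample, which numbered 16 to 30, Trgc4 held 54.8% ± 1.31 (SD, n = 3) in Sharpin, 30.2% ± 5.04 in WT and 30% ± 5.77 in Hoil cells. Trgc1 held 14.4% ± 5.88 in Sharpin, 45.2% ± 5.01 in WT and 37% ± 9.45 in Hoil cells. The 3 Sharpin low samples lay outside the range of the WT and the Hoil low samples for both genes. The differences between Sharpin low and WT low, of −30.8 percentage points for Trgc1 and 24.6 for Trgc4, each had the smallest p that 3 against 3 allow (exact permutation test, two-sided, p = 0.1). In the high fraction, where a sample had 84 to 272 such counts, Trgc2 held the largest share in WT cells (49.4% ± 10.4) and in Hoil cells (46.2% ± 4.38), and Trgc4 in Sharpin cells (50.5% ± 18.6). Trgc4 held 30.2% ± 2.91 in Hoil high and 31.4% ± 7.66 in WT high cells. Trgc1 held 22% ± 3.56 in Hoil high, 17.7% ± 2.35 in WT high and 14% ± 5.63 in Sharpin high cells. Trgc3, the least used constant gene, had 10, 8 and 9 counts in the Sharpin high samples, against 3, 0 and 1 in WT high and 2, 4 and 4 in Hoil high samples.

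**Figure D4:**
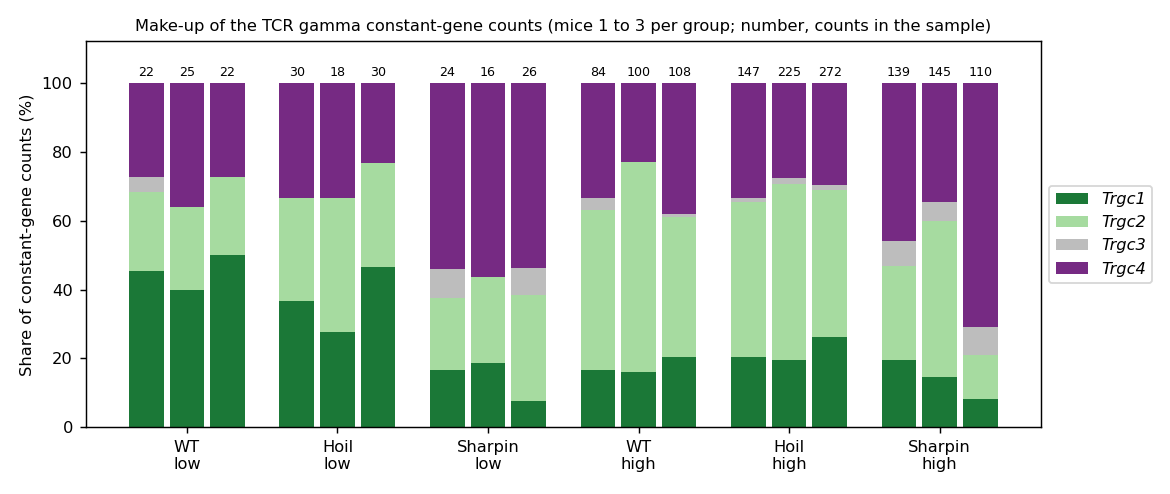
Percent of the counts to the 4 gamma constant genes that fell on each, 1 stacked bar per mouse, grouped by genotype and fraction, with the number of counts above each bar. Trgc4 takes 54.8% on average in Sharpin low samples and 30.2% in WT low samples, and Trgc1 takes 14.4% and 45.2%.

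Sox13 followed another pattern, with its higher level in the low fraction of all 9 mice. In the low fraction it was at 20.3, 22.0 and 35.4 CPM in Sharpin, at 18.3, 26.9 and 21.4 CPM in Hoil and at 16.8, 13.4 and 10.01 CPM in WT cells. Every mutant sample lay above every WT sample. The rise in Sharpin low cells was 0.86 on the log2 scale, or 1.82-fold (SE 0.203, 95% interval 0.464 to 1.26, adjusted p = 0.00738), a call that was lost in a fit of just the groups compared (0.127). In Hoil low cells the difference was 0.71, or 1.63-fold (SE 0.222, 95% interval 0.273 to 1.14), and did not pass (adjusted p = 0.166). It passed with DESeq2 (adjusted p = 0.0363) and without WT mouse 1 (0.0474). Hoil low and Sharpin low cells, which share the WT low controls in these comparisons, differed from each other by −0.15 (95% interval −0.6 to 0.295, adjusted p = 0.737).

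In the high fraction Sox13 was at 8.88, 8.79 and 11.2 CPM in Hoil, at 5.89, 7.63 and 8.42 CPM in Sharpin and at 4.53, 2.95 and 2.90 CPM in WT cells, 3 ranges with no overlap. The log2 difference from WT high was 1.53 (SE 0.199) in Hoil and 1.15 (SE 0.183) in Sharpin cells, given as a description. The low to high ratio within a mouse was 3.46 to 4.55 in WT, 2.89 to 4.20 in Sharpin and 1.90 to 3.06 in Hoil mice. Sox13 held 42 to 423 counts per sample, the deepest of the members.

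Zbtb16 was at 2.26, 3.07 and 2.28 CPM in WT high, 2.88, 3.05 and 2.71 CPM in Sharpin high and 1.67, 2.20 and 1.34 CPM in Hoil high cells. The Hoil samples were below all others of the high fraction (log2 difference from WT high −0.47, SE 0.447, as a description). In the low fraction it was at 1.41, 2.18 and 1.25 CPM in WT, 1.09, 1.56 and 0.271 CPM in Hoil and 1.96, 0.430 and 1.76 CPM in Sharpin cells, and the genotypes overlapped. The log2 differences from WT low were −0.96 (SE 0.498, adjusted p = 0.497) in Hoil and −0.58 (SE 0.454, adjusted p = 0.449) in Sharpin cells. The lowest low samples were Hoil mouse 3 and Sharpin mouse 2, the mutant mice with abundant Xist, and with Xist as a covariate the Hoil difference was −1.76 (adjusted p = 0.0234). The 3 WT mice also had abundant Xist, with Zbtb16 at 1.25 to 2.18 CPM in their low samples. Sharpin mouse 2 had the highest Zbtb16 of the Sharpin high samples, at 3.05 CPM. The part of sex in these values was not tested further.

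**Figure D5:**
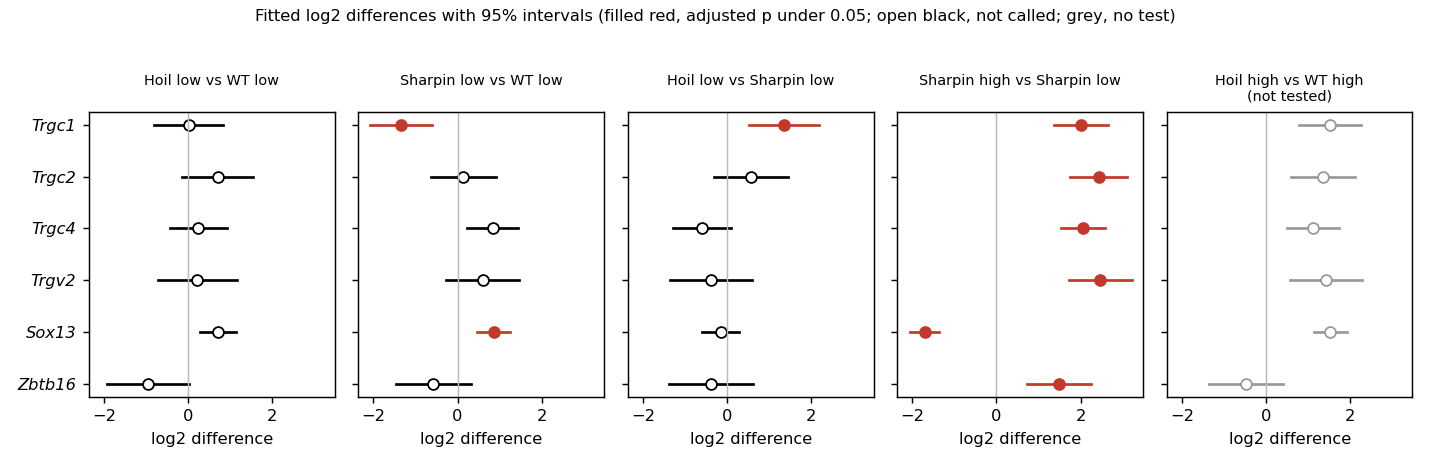
Fitted log2 differences with 95% intervals for the 6 members, 1 panel per comparison on a shared axis; red marks an adjusted p under 0.05, black a difference that was not called, and grey the untested Hoil high against WT high values. In Sharpin high against low cells all 6 intervals lie away from 0, and in Hoil low against WT low cells Sox13 has the interval farthest above 0.

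The difference between the fractions could be tested in Sharpin mice, whose high samples the choice did not use. Each of the 6 members passed, where 54.6% of all genes did, but Trgv2 was kept by the low-count filter through its high samples, since only 1 low sample reached 0.5 CPM, so that its rise was favoured by the filter and the count of 6 is not read as support. No member's fractions overlapped, but the share of all genes for which this held is not given here, so that it is not read as a trait of the members. Trgc1 rose by 2.02 on the log2 scale (SE 0.327, adjusted p = 4.65e-06), Trgc2 by 2.43 (SE 0.341), Trgc4 by 2.06 (SE 0.272) and Trgv2 by 2.47 (SE 0.381), with adjusted p between 1.38e-07 and 4.65e-06. Zbtb16 rose by 1.49 (SE 0.391, adjusted p = 0.00283), a call that rested on Sharpin mouse 2, without which the difference was 0.58 (adjusted p = 0.253). Sox13 fell by 1.71 (SE 0.175, adjusted p = 2.65e-08). Of all genes, 27.2% rose and 27.4% fell. The corresponding log2 differences in WT mice, as a description, were 0.82 for Trgc1, 2.91 for Trgc2, 2.20 for Trgc4, 2.85 for Trgv2, −1.99 for Sox13 and 0.63 for Zbtb16. In Hoil mice they were 2.34, 3.58, 3.08, 4.06, −1.17 and 1.11. Within a mouse, the high to low ratio of Trgc1 was 1.57 to 1.77 in WT, 3.84 to 6.39 in Sharpin and 2.85 to 7.71 in Hoil mice. For Trgc2 the ratio was 7.76 to 9.97 in WT and 7.67 to 18.2 in Hoil mice, and 7.20, 12.2 and 1.49 in Sharpin mice 1 to 3.

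The other gamma and delta segments gave no call in the low fraction. Of 4 gamma and 7 delta segments tested, 0 passed in Hoil low or Sharpin low against WT low cells with limma, edgeR or DESeq2, and 0 had an unadjusted limma p under 0.05. Of all genes, 0.985% and 12.2% passed with limma in these comparisons. The 4 gamma segments had just 0 to 13 counts per group of 3 low samples, so that only a large difference was detectable in them. Trdc was at 15.3, 12.4 and 15.4 CPM in Hoil low, 12.9, 13.4 and 13.2 CPM in Sharpin low and 14.4, 10.8 and 12.1 CPM in WT low cells. The 4 gamma segments reached the level of the low-count filter in high samples alone, so that a rise from low to high was favoured by the filter and their count is not evidence of one. Their log2 differences between Sharpin high and low cells were 1.82 for Trgv1, 2.01 for Trgv4, 2.11 for Trgj2 and 2.58 for Trgj4. Of the 7 delta segments, 3 rose, where 27.2% of all genes did, by 1.02 for Trdc (adjusted p = 3.72e-10), 1.56 for Trdv5 and 1.23 for Trdj1. Trdv1, Trdv2-1, Trdv2-2 and Trdj2 did not pass. Trdv4, with at most 2 counts in a sample, was not tested, nor were the diversity segments Trdd1 and Trdd2.

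The wider set of 19 genes linked to the gamma-delta lineage, of which 15 were tested, gave 0 calls in Hoil low cells. In Sharpin low cells 1 rose and 2 fell, beside 5.31% and 6.92% of all genes, and the median log2 difference was −0.0401. Those that fell were Cd163l1 and 5830411N06Rik, which encode the related scavenger receptors SCART1 and SCART2 of gamma-delta cells. Strain and genotype cannot be told apart in Sharpin mice, and the part of the C57BL/Ka background in these 2 falls was not tested. Cd163l1 had 5, 6 and 6 counts in the WT low samples and 0 in each Sharpin low sample (adjusted p = 4.79e-05 by limma). By the 95% exact interval of the pooled counts it was 3.6-fold lower or more, with counting error only. In the high fraction, the 3 Sharpin samples held 4 counts of Cd163l1 against 213 in WT, a ratio of 0.0179 (95% exact interval 0.00482 to 0.0464), whereas the 3 Hoil samples lay at 6.83 to 7.88 CPM and the WT ones at 3.14 to 7.11 CPM. 5830411N06Rik had 1 count in Sharpin low against 19 in WT low samples, a ratio of 0.0604 (95% exact interval 0.00145 to 0.38, adjusted p = 0.000444). In the high fraction it lay at 2.496 to 7.279 CPM in Sharpin, 3.64 to 4.93 CPM in WT and 8.73 to 10.53 CPM in Hoil cells, so that Sharpin and WT overlapped and all Hoil samples lay above them. Egr3, a TCR-induced transcription factor gene, rose by 0.29 in Sharpin low cells (adjusted p = 0.0449), with overlapping ranges.

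Of 32 genes of innate-like T cells, 24 were tested, and 0 passed in Hoil low cells. In Sharpin low cells 2 rose and 3 fell, beside 5.31% and 6.92% of all genes (median log2 difference 0.00876). Il18r1, a chain of the interleukin 18 receptor, fell by 1.39 on the log2 scale (adjusted p = 0.00759), with 23 against 60 pooled counts. Klrd1, the NK receptor gene for CD94, rose with 12 against 1 pooled counts, a ratio of 13.8 (95% exact interval 2.04 to 588, adjusted p = 0.00297). The other 3 changes were small, with Zbtb7b, the CD4-lineage factor ThPOK, at 0.31 (adjusted p = 0.0292), Egr2 at −0.22 (0.0316) and the SLAM-family receptor gene Slamf1 at −0.22 (0.0392). From low to high in Sharpin mice, 11 of the 24 innate-like genes rose and 9 fell, and of the 15 gamma-delta lineage genes 6 rose and 7 fell, beside 27.2% and 27.4% of all genes. Some of those that rose, such as Klrd1 and 5830411N06Rik, were kept by the low-count filter through high samples, which favoured a rise. The smallest p-values among them were those of Il2rb, a chain of the interleukin 2 and 15 receptors, which rose by 2.49 (adjusted p = 2.25e-24), and of the transcription factor gene Gata3, which fell by 1.80 (2.3e-22). Nkg7, a gene of cytotoxic granules, rose by 5.23, 5830411N06Rik by 5.45, Plac8 by 3.66 and the CD8-lineage factor Runx3 by 1.33. The interleukin 25 receptor gene Il17rb fell by 2.62, Egr2 by 1.37, the SLAM adaptor gene Sh2d1a by 1.23, Lmo4 by 1.02, Sox4 by 0.87 and Cd27 by 0.79.

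Several genes of these lists, and Gzma of the NK cell markers, stood apart in Hoil high cells, given as values with no test. Gzma, which encodes granzyme A, was at 10.8, 13.6 and 19.5 CPM there, against 4.28, 4.96 and 5.24 CPM in WT high cells. Blk, a kinase gene of B cells and interleukin 17-producing gamma-delta cells, had a mean of 1.11 against 0.364 CPM, on 11 to 17 against 1 to 8 counts per sample. Ccr6, of the same gamma-delta list, went the other way, with a mean of 0.165 against 0.876 CPM, on 1 to 3 against 8 to 16 counts. Klrd1 was lower in Hoil high cells, at 1.22, 0.455 and 0.768 CPM against 3.72, 3.39 and 2.35 CPM, as were Eomes (1.55 against 3.30 CPM) and Cxcr6 (3.25 against 6.75 CPM), both genes of effector and innate-like lymphocytes. Genes of the gamma-delta and innate-like lists thus lay on both sides of WT in Hoil high cells.

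Markers of other cell types were measured beside these values. The 6 NK cell markers summed to 17.0, 24.3 and 28.6 CPM in Hoil high samples, 13.3 to 18.3 CPM in WT high and 15.8 to 20.8 CPM in Sharpin high samples, and rose with Gzma, which is 1 of them. The defining NK gene Ncr1 was at 0 counts in all 18 samples, Klra8 at 0 or 1 and Tyrobp at 1 to 7. B cell markers summed to 81.0 to 107 CPM in low and 147 to 178 CPM in high samples, mostly Ighm, with Ms4a1 at 0 to 6 and Pax5 at 0 or 1 counts. Myeloid and dendritic markers summed to 7.03 to 12.1 CPM in low and 11.4 to 14.98 CPM in high samples, with Csf1r at 0 to 7 and Siglech at 0 to 3 counts. Of the early thymocyte genes, Il2ra, the gene for CD25, was lower in Sharpin low cells by limma (log2 −1.37) and in Hoil low cells (−1.34, adjusted p = 8.76e-05), and Kit was lower in Sharpin low cells (−1.04). Other genes of that list had higher means than in WT low cells. Lyl1 was at 2.14 CPM in Hoil low and 1.93 CPM in Sharpin low against 1.28 CPM in WT low cells. Dtx1 was at 14.4 CPM in Sharpin low against 12.6 CPM in WT low cells. Among alpha-beta TCR and CD3 genes, 4 of 8 rose in Sharpin low cells, where 5.31% of all genes did, Trac by 0.29 (adjusted p = 0.000397) and Cd3e, Cd3g and Cd247 by 0.21 to 0.30. The part of these cells and genes in the members' values was not tested.

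The genes most like each member were named by the Pearson correlation of log2 CPM over the 18 samples, which share mice, fractions and depth, so that the split between fractions enters each value. For Trgc1 they were Tgfb1i1 (r = 0.915), Ipo7 (0.898) and Gzma (0.895). For Trgc2 they were Paics (0.946), Trdc and Elovl5 (both 0.939), and for Trgc4 they were Hmgb2 (0.963), Lig1 (0.958) and Fignl1 (0.956), the first 2 of which encode a chromatin protein and a DNA ligase of dividing cells. For Trgv2 they were Trim37 (0.961), Cenpi and Drc1 (both 0.954), for Sox13 Cbarp (0.926), Nedd4 (0.92) and Chrna9 (0.919), and for Zbtb16 Khdrbs3 (0.877), 9230116N13Rik and Tmem220 (both 0.857). Between Trgc1 and Trgc4 the correlation was 0.569 over the 9 high samples and −0.794 over the 9 low samples.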

How the data were processed

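Messenger RNA of CD69+ MHC I low and high thymocytes from 3 mice per genotype was sequenced as 75-base single-end reads (TruSeq libraries, strand use not stated). The authors mapped reads to mm10 with Subread and assigned them to genes with featureCounts and its inbuilt annotation; the deposited values are raw counts per Entrez gene. Versions and the treatment of reads with several mapping places are not given in the sources used here. Counts were matched to RefSeq GRCm38.p6 by gene number (25275 of 27179 genes).

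The low-count filter asked for 0.5 CPM or more in 3 or more samples. In addition, Y-linked genes, Xist, predicted genes and genes without a symbol were removed, which left 12798 genes. TMM factors ran from 0.9873 to 1.015. Log2 CPM (prior count 1) was fitted in R 4.3.3 with limma 3.58.1 (edgeR 4.0.16 for scaling, statmod 1.5.0), with 6 group means over all 18 samples, sample quality weights (0.6282 to 2.423), mouse as a random block (within-mouse correlation 0.224) and robust moderated variances with a trend. A gene was called at a Benjamini-Hochberg adjusted p under 0.05 over all genes tested. Intervals of log2 differences are 95%, and intervals of count ratios are exact and cover counting error only. Single sums and shares were compared with exact permutation tests. The scripts were checked on simulated counts.

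The 2 fractions of a mouse are paired by the labels; their deviations from the group means correlated at 0.0702 (WT mouse 1) to 0.256 over the 9 mice. Replicates differed by more than sampling noise (chi-square per degree of freedom 3.95 to 14.1), so that none were treated as 1 sample. The alternatives tried were DESeq2 1.42.0, the quasi-likelihood test of edgeR, library-size scaling, other filters and prior count, no weights, no mouse block, the replicate number shared across genotypes as a fixed term, a fit of the groups compared alone, Xist as a covariate, and each mouse left out. Named genes were the 6 members, the TCR gamma and delta segments, list genes called in a tested comparison (the 12 of smallest p where more were called), check genes and the 3 genes most like each member; genes described in Hoil high cells and the marker genes of other cell types were named after their values were seen. The members and lists were chosen with earlier results of these data known. Values of some single genes are not reported here.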

Additional observations from a re-analysis of the deposited data

Results flagged for a closer look

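For Trgc1 the difference from WT in MHC I low cells was not the same in the 2 mutants: Hoil minus Sharpin was 1.36 on the log2 scale (SE 0.428, adjusted p = 0.041 by limma with Benjamini-Hochberg adjustment), with every Hoil low sample above every Sharpin low sample. The value comes from the direct comparison of the mutants, since both differences use the same WT low samples. It passed in 9 of 20 alternatives, and the adjusted p over the alternatives that lost it ran from 0.0512 to 0.181. Groups of 3 were too small to look for single outlying samples.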

How the results depend on the processing

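Over 484 values of single members under the alternatives, 445 kept their direction and side of the threshold, 4 gained the call, 20 lost it and 15 changed sign. The cause of these changes was not tested, apart from the stricter filter, which leaves only Sox13 of the members and 29 of 50 list genes. Calls among the 6 members, and among the 50 list genes tested, were as follows. In Hoil low against WT low cells, 0 members passed, against 1 with DESeq2 and 1 with the Xist covariate (0 to 1 without a mouse), and 0 list genes (0 with edgeR) against 1 with DESeq2, 1 with a fixed replicate block and 1 with Xist (0 without any mouse). Of all 12798 genes, 126 passed with limma, 125 with edgeR, 191 with DESeq2, 162 with the fixed block and 217 with Xist. Without a mouse, 62 to 221 genes passed. In Sharpin low against WT low cells, 2 members passed, against 1 with edgeR, DESeq2, at least 10 counts or Xist and 0 with only the groups compared (1 to 2 without a mouse), and 8 list genes, against 4 with edgeR or at least 10 counts and 5 with no filter, no weights or Xist (3 to 9). Of all 12798 genes, 1565 passed with limma, 1138 with edgeR, 1264 with DESeq2 and 1373 with Xist. With no weights 1220 passed, and with only the groups compared 1591. With at least 10 counts 1542 of 10900 genes passed, and with no filter 1191 of 17669. Without a mouse, 828 to 1557 genes passed. Between Hoil low and Sharpin low cells 1 member passed, and 0 with edgeR, DESeq2, no filter, at least 10 counts, the fixed replicate block, only the groups compared or a prior count of 3 (0 to 1). Of all 12798 genes, 1213 passed with limma, 1505 with edgeR, 1612 with DESeq2 and 1330 with the fixed block. With only the groups compared 1098 passed, and with a prior count of 3 it was 1235. With no filter 1086 of 17669 genes passed, and with at least 10 counts 1190 of 10900. Without a mouse, 701 to 1193 genes passed. Between Sharpin high and low cells, 6 members passed, and 1 with at least 10 counts (5 to 6), and 40 list genes, and 23 with at least 10 counts (37 to 40). Of all genes, 6991 of 12798 passed, and 6399 of 10900 with at least 10 counts. Without a mouse, 5421 to 7062 genes passed. Some of these members and list genes were kept by the low-count filter through high samples, which favoured a rise, so that their counts are not read as support.

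Sign changes were as follows. In Hoil low against WT low cells Trgc1 was −0.0245 without weights and −0.00297 with only the groups compared, and −0.245 to 0.262 without a mouse, and Trgv2 −0.0943 to 0.796. Against WT in Sharpin low cells Trgc2 ran from −0.0613 to 0.365 and Zbtb16 from −0.763 to 0.266. Between the mutants Trgv2 ran from −0.701 to 0.195, Sox13 from −0.367 to 0.0355 and Zbtb16 from −1.22 to 0.354. The fixed replicate block joins different mice of the 3 genotypes that share only a number. With it Trgc4 passed in Sharpin low cells (0.896, adjusted p = 0.0399), and leaving the block out changed no count of calls by over 1.5 times. The low fraction gave the TCR gamma members 1 to 14 counts per sample, which limits every test on them there.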
